A study of Mus musculus with 4 samples.

Results

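Serpine3 and Prss56 are 2 genes of the 14572 entries in a table of RNA reads from injured mouse retinas, and both were chosen by the difference of their read counts between the study's groups. Wild-type retinas gave the libraries P1041 and P1033, and retinas labelled as PLSCR1 transgenic gave TP-1036 and TP-1040, so each group has 2. All 4 came from C57BL/6 mice whose eyes had 1 h of acute ocular hypertension, in which high pressure inside the eye injures the retina as a model of glaucoma, with the retinas taken 5 days later. Every label gives the age as E14.5, which is at odds with such an injury and was not used. No source used here names the promoter or cell type that drives the transgene, or the number of animals behind a library. The transgenic columns are marked TP and case, and were assigned to that group because only 2 groups exist.

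Serpins are folded proteins that present a loop as bait to a protease and, once cut, trap that protease in a covalent complex. Serpine3 belongs by name to the clade of protease nexin 1 (Serpine2), and its expression has been described in Müller glia of the zebrafish eye. Prss56 encodes a secreted serine protease of the trypsin fold. It is made by Müller glia in the mouse retina, its loss shortens the eye in mice, and mutations in human PRSS56 cause very small, far-sighted eyes. Müller glia are the radial support cells of the retina and respond to injury with a programme called gliosis. The table holds RNA reads only, so neither protein nor protease activity was measured.

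Both genes lie on the forward strand in GENCODE M21, the mouse annotation on build GRCm38 used here for names and lengths. Serpine3 (ENSMUSG00000091155.1) spans chr14:62663667-62692243, with 9 exons in a transcript of 1402 bases. Prss56 (ENSMUSG00000036480.9) spans chr1:87183313-87188405, with 13 exons in a transcript of 2180 bases. The sequences shown next were chosen because the genes were high in the same libraries and a reader may want to compare what lies before their starts. They are 30-base stretches of RefSeq's promoter windows (GRCm38.p6, forward strand), which run from 250 bases before to 50 after a gene's start, and capitals mark the matched letters:
Serpine3, TTTAAA, chr14:62663626-62663655: tgctcctactctTTTAAAaagggcagcatg
Prss56, TATATA, chr1:87183273-87183302: ccctctgtcctcTATATAgctccagggcat
Prss56, TTCNNNGAA, chr1:87183152-87183181: aagggccgctTTCACAGAAgtggggagacg

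In each window the matched letters T and A began 29 bases before the start, the distance at which a TATA box lies. TTTAAA was found in the window of Serpine3 and TATATA in that of Prss56, while neither window held TATAAA. Over all 32851 promoter windows, TTTAAA occurred anywhere in 13.2%, TATATA in 5.67% and TATAAA in 13.6%. On the forward strand they began 35 to 25 bases before the start in 0.983%, 0.822% and 1.75% of windows. These letters were chosen after the sequences had been read, and both strands were searched. TTCNNNGAA, the core letters bound by STAT factors, began 152 bases before the start of Prss56 and was present in 8.30% of all windows. It was not found in the window of Serpine3. The letters TGANTCA (AP-1) and GCGTGGGCG (EGR), a 10-letter NF-kB motif and the interferon-stimulated response element were found in neither window. They occurred in 7.81%, 0.612%, 0.411% and 3.44% of all windows. RefSeq also models transcripts of both genes that begin further upstream, with gene starts at chr14:62663298 and chr1:87183102. The printed stretches thus lie inside these gene models, and the sequence before those starts was not searched.

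Serpine3 had few reads in wild type and many in the transgenic-labelled libraries. Its estimated reads numbered 30 in P1041 and 45.25 in P1033, against 296 in TP-1036 and 357.42 in TP-1040. Scaled to library size, these were 1.05 and 1.37 CPM (counts per 1000000 reads) in wild type and 7.82 and 8.76 CPM in the transgenic-labelled libraries. Both transgenic-labelled values were high and both wild-type values low, and the lowest of the former was 5.70 times the highest of the latter. Group means were 1.21 ± 0.230 and 8.29 ± 0.669 CPM (SD, n = 2 per group), a 6.86-fold difference. On the log2 scale the fitted difference was 2.77 ± 0.24 (SE). The gap between the groups was 2.51 on the log2 scale, where the wild-type libraries lay 0.39 apart and the transgenic-labelled ones 0.16. The difference is given as a description with no test, since the gene was chosen for it. With 30 reads, the 95% exact Poisson interval of the lowest value ran from 0.706 to 1.49 CPM, and that of TP-1036 from 6.95 to 8.76 CPM. These intervals cover counting error only.

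Prss56 was more abundant than Serpine3 in wild type and differed less between the groups. Its reads numbered 155 in P1041 and 224 in P1033, against 741 and 562 in TP-1036 and TP-1040. The levels were 5.40 and 6.79 CPM in wild type and 19.6 and 13.8 CPM in the transgenic-labelled libraries. Again the groups did not overlap, with the lowest transgenic-labelled value 2.03 times the highest of wild type. Among the 12687 genes tested below, 23.8% were higher and 24.0% lower with no overlap, so separation alone marks neither gene. TP-1036 lay 1.42 times above TP-1040, a gap wider than their Poisson intervals (18.2 to 21.0 and 12.7 to 15.0 CPM). Means were 6.10 ± 0.977 and 16.7 ± 4.09 CPM (SD, n = 2), 2.73-fold apart, and the fitted log2 difference was 1.45 ± 0.22 (SE). This difference was also the reason for choosing the gene and has no test. In whole-tissue RNA, more cells that make a transcript and more of it per cell cannot be told apart.

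**Figure D1:**
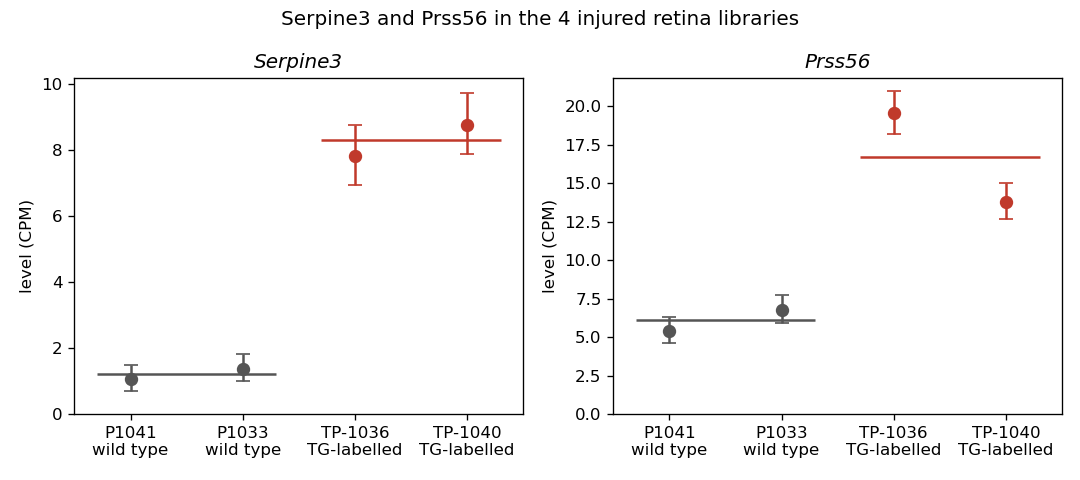
Levels of Serpine3 (left) and Prss56 (right) in CPM for each library, with 95% Poisson intervals of the reads as bars and group means as horizontal lines. The transgenic-labelled values of Serpine3 (7.82 and 8.76) and of Prss56 (19.6 and 13.8) all lie above the wild-type values, and TP-1036 is the higher of its pair for Prss56 but the lower for Serpine3.

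The genes did not keep a fixed ratio to each other. Per length, in FPKM (reads per kilobase of transcript and per 1000000 reads), Serpine3 stood at 0.741 and 0.994 in wild type and at 5.48 and 6.19 in the transgenic-labelled libraries. Prss56 stood at 2.46 and 3.17 FPKM in wild type and at 8.83 and 6.25 FPKM in TP-1036 and TP-1040. The FPKM of Prss56 was 3.32 and 3.18 times that of Serpine3 in wild type, 1.61 times in TP-1036 and 1.01 times in TP-1040, where their levels per length were nearly equal. Averaged over the 4 libraries both were of low to middling abundance, with 20.5% of tested genes below Serpine3 and 31.8% below Prss56. Serpine3 passed the filter of a mean FPKM of at least 1 only through the libraries where it was high, whereas Prss56 exceeded 1 in each library.

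Ranked by log2 difference among 12687 tested genes, Serpine3 was at place 7, between the MHC class II gene H2-Aa (2.84) and the lysozyme gene Lyz2 (2.54). Prss56 was at place 10, between H2-Ab1 (2.39) and Ttr (1.42), the carrier of thyroxine and retinol-binding protein. Both belonged to the 64 genes at least 2-fold higher with no overlap between the groups, 0.504% of those tested, and nothing is read from that because the rule used the same contrast. Left out in turn, each single library changed the sizes moderately. For Serpine3 the log2 difference ran from 2.60 without P1041 to 2.98 without P1033. For Prss56 the lowest value was 1.18, without TP-1036, and the highest 1.68, without TP-1040.

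Several facts of the libraries touch these values. Plscr1, the gene named by the transgene, had 229 and 276 reads in wild type and 371 and 329 in TP-1036 and TP-1040, which in CPM overlapped (7.98, 8.36, 9.80 and 8.06), and no label tells if reads of the transgene would count there. Library totals ran from 28866589 to 41215649 estimated reads. The Y-linked gene Ddx3y had 1 read in TP-1040 and 1666 to 2789 in the others, so the libraries were not alike in sex. Without TP-1040 the differences of Serpine3 and Prss56 were 2.69 and 1.68 on the log2 scale. Whether the 2 libraries of a group came from separate animals is otherwise not stated, so p-values below measure the spread between these libraries. In the quasi-likelihood test of edgeR, 0 of the 12687 genes (0.0%) passed a Benjamini-Hochberg adjusted p of 0.05, 599 were higher (4.72%) and 527 lower (4.15%) at an unadjusted p of 0.05, together 1126 (8.88%), and DESeq2 called 55 higher (0.434%) and 14 lower (0.110%). Of all tested genes 6394 (50.4%) had a log2 difference above 0, and with no overlap 3017 (23.8%) were higher and 3051 (24.0%) lower. The counts below are to be read against these shares.

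The genes beside Serpine3 on chromosome 14 did not share its difference. Ints6, a subunit of the Integrator complex, lies on the opposite strand and overlaps Serpine3 by 15914 bases, of which 348 are exonic in both genes (24.8% of the exon bases of Serpine3). Ints6 stood at 44.6 and 50.4 CPM in wild type and at 33.6 and 44.4 CPM in the transgenic-labelled libraries, a log2 difference of -0.28 ± 0.16 (SE; -0.09 without TP-1036 and -0.49 without TP-1040). It was thus lower where Serpine3 was higher, although TP-1040 (44.4) lay just under P1041 (44.6). No source used here says whether reads were counted by strand, so reads from the shared bases cannot be told apart. Next after it, Wdfy2, an endosomal protein gene, stood at 65.4, 70.3, 47.8 and 60.1 CPM (P1041, P1033, TP-1036 and TP-1040), also lower (-0.33 ± 0.14, and -0.17 without TP-1036). On the other side, Fam124a (8.40, 9.94, 10.6 and 9.51 CPM) and Rnaseh2b (7.22, 6.88, 7.68 and 6.72 CPM), a subunit of RNase H2, overlapped between the groups. Their log2 differences were 0.13 ± 0.16 and 0.03 ± 0.17 (SE), with ranges of 0.02 to 0.26 and -0.06 to 0.13 when a library was left out.

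Around Prss56 on chromosome 1 the neighbours were mixed. Eif4e2, a cap-binding protein gene that starts 25.5 kb after it, stood at 39.0, 39.0, 35.7 and 41.7 CPM, with overlap between the groups. Efhd1, a calcium-binding mitochondrial protein gene, stood higher in the transgenic-labelled libraries (25.9 and 21.6 CPM) than in wild type (17.1 ± 0.205 CPM, SD, n = 2; log2 difference 0.47 ± 0.14, SE, edgeR adjusted p = 0.538). Ecel1, a neuronal peptidase gene known to be induced by nerve injury, lies 26.8 kb before Prss56 on the other strand. Its values were 1.71 and 7.48 CPM in wild type and 8.82 and 7.80 CPM in the transgenic-labelled libraries. Only P1041 was low, and without it the log2 difference of Ecel1 went from 0.84 ± 0.57 to 0.15, while without P1033 it was 2.28. Gm37447, the next gene of the table before it, fell below the filter.

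**Figure D2:**
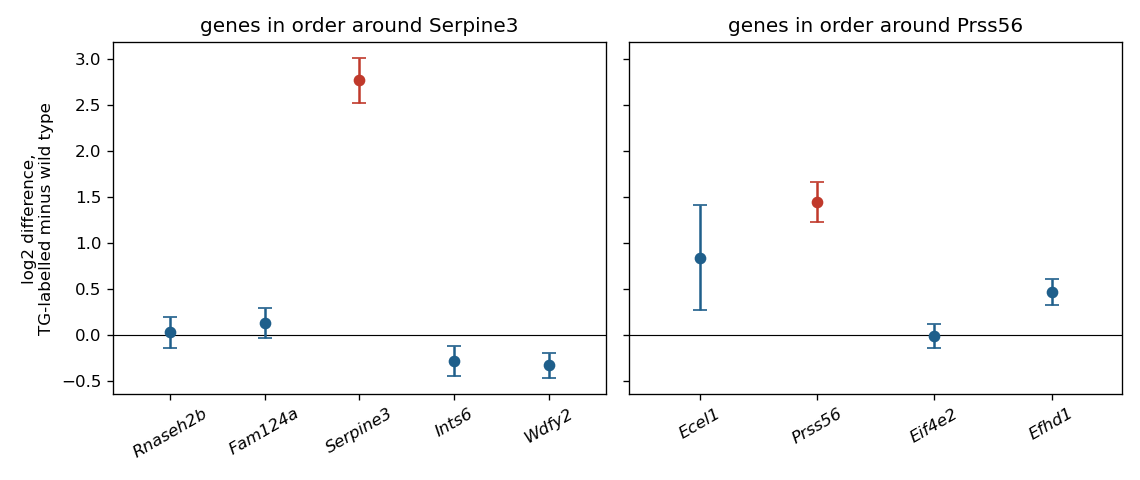
Log2 difference between the transgenic-labelled and wild-type libraries (points, bars are SE) for Serpine3, Prss56 and the nearest tested genes of the table, in chromosome order and not to scale. Serpine3 (2.77) and Prss56 (1.45), both chosen for this difference, lie above their neighbours, which run from -0.33 for Wdfy2 to 0.84 for Ecel1.

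Other serpins were mostly higher too. Serpine3 was chosen for its difference, so the size of theirs is not ranked against it. Of 41 further serpin genes 11 were in the table and 9 were tested. Of these, 8 were higher and 1 lower, 5 were higher at an unadjusted p of 0.05 and 0 lower, and 0 passed when adjusted over all genes (edgeR), while DESeq2 called 1. The median log2 difference was 0.55 (0.73 without TP-1040, 0.21 without TP-1036), beside 0.0023 over all tested genes, and the range was -0.24 to 0.84. Serpinh1, the collagen chaperone HSP47, was the gene DESeq2 called, with 13.5 and 13.3 CPM in wild type against 26.7 and 21.3 CPM. Serpine2, of the same clade as Serpine3, had 10.1 and 9.21 CPM in wild type against 15.9 and 12.8 CPM. Serping1, the C1 inhibitor of complement, differed by 0.74 ± 0.26, Serpinf1, which encodes the factor PEDF, by 0.63 ± 0.23 and angiotensinogen (Agt), a serpin without inhibitor function, by 0.55 ± 0.21 (log2, SE). Without TP-1036 the difference of Serping1 was 0.38 and that of Agt 0.21, and without TP-1040 that of Agt was 0.84. The neuronal serpin gene Serpini1 had the lowest difference, -0.24 ± 0.11, and Serpina3n, the most abundant serpin after it in CPM, overlapped between the groups (45.4, 50.8, 73.1 and 48.4 CPM).

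Compared per length, Serpine3 stood at 0.868 ± 0.179 FPKM in wild type and at 5.83 ± 0.497 FPKM in the transgenic-labelled libraries (SD, n = 2). In the latter Serpine2 stood at 4.18 FPKM and Serpinh1 at 10.4 FPKM. No rank in the family is given, since the filter on mean FPKM kept low serpins out and let Serpine3 in through its high libraries.

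Most other tested serine proteases of the trypsin fold were higher as well, with a smaller median difference than the serpins. Of 74 such genes other than Prss56, 19 were in the table and 10 tested, with 8 higher and 2 lower and a median log2 difference of 0.24 (0.06 without TP-1036, 0.42 without TP-1040). At an unadjusted p of 0.05 only Htra3, a secreted protease gene, was higher (4.29 and 3.64 CPM in wild type against 5.78 and 5.56 CPM), and 0 were lower. The related Htra1 was the most abundant and overlapped between the groups (102, 121, 186 and 105 CPM). Plat, which encodes tissue plasminogen activator, stood at 19.3, 21.2, 31.3 and 22.3 CPM, with TP-1036 apart and TP-1040 close to P1033. The range of log2 differences over the 10 was -0.46 to 0.72. Prss56 was chosen for its difference and is not ranked among them. Per length Prss56 stood at 2.81 ± 0.497 FPKM in wild type and at 7.54 ± 1.82 FPKM in the transgenic-labelled libraries (SD, n = 2). Of the plasminogen activator system as a whole, 12 of 22 genes were tested, 7 were higher and 5 lower, with a median of 0.19 (0.07 without P1041, 0.12 without P1033, and 0.06 when the filter on mean FPKM was raised to 5). Only Serpine2 was at an unadjusted p of 0.05 there. Its genes of highest CPM were Vtn, the adhesive plasma protein vitronectin, at 0.32 ± 0.14, the lipoprotein receptor Vldlr at -0.09 ± 0.14 and the clearance receptor Lrp1 at 0.17 ± 0.14 (log2, SE). Each moved with single libraries. Vtn was at 0.19 and Vldlr at 0.05 without TP-1036, and Lrp1 ran from 0.05 without TP-1040 to 0.29 without TP-1036. Vldlr stood at 459 and 432 CPM in wild type and at 376 and 461 CPM in the transgenic-labelled libraries, so its groups overlapped.

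**Figure D3:**
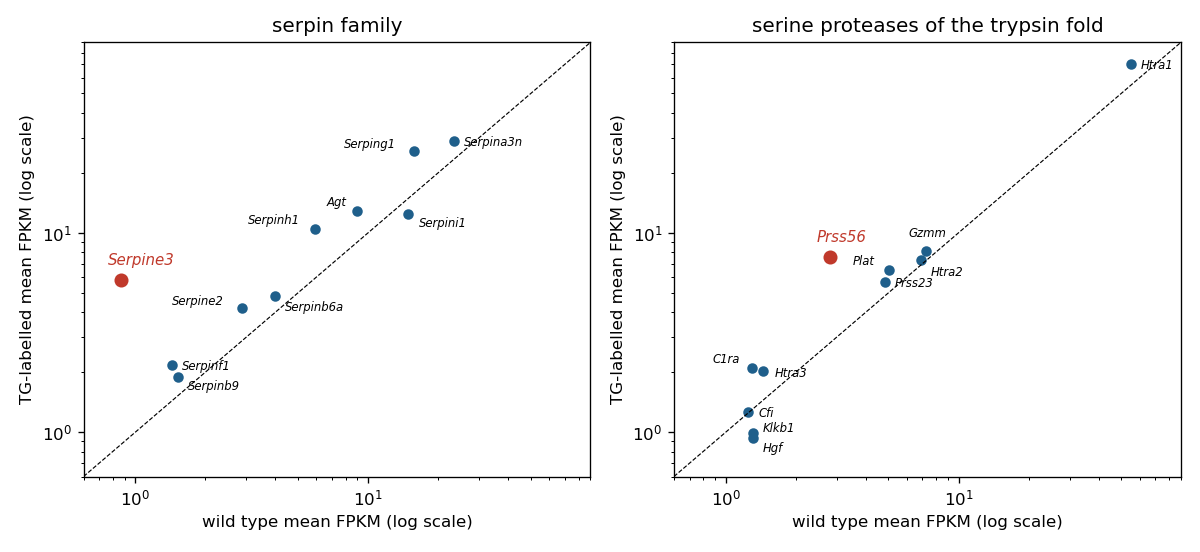
Mean FPKM in wild type (horizontal, log scale) against the transgenic-labelled libraries (vertical, log scale) for tested serpins (left) and serine proteases of the trypsin fold (right), each point a gene and the dashed line equal levels. Serpine3 (0.868 and 5.83) and Prss56 (2.81 and 7.54), in red, were chosen for their difference between the groups. Their distance above the line is therefore not a result of the comparison.

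Genes that, like Prss56, are tied to the size or refraction of the eye showed no common direction. Of 45 listed genes 34 were tested, with 20 higher and 14 lower and a median log2 difference of 0.05, which was -0.03 without P1041 or TP-1040 and 0.12 without P1033. At an unadjusted p of 0.05, 6 were higher and 1 lower. Egr1, an early growth response factor whose loss lengthens the mouse eye, stood at 26.3 and 35.9 CPM in wild type and at 49.4 and 54.3 CPM in the transgenic-labelled libraries. It was the only gene of the list that DESeq2 called. Stra6, the receptor for retinol-binding protein, stood at 4.88 and 5.33 against 9.06 and 8.33 CPM. The transcription factors Sox2 and Rax were higher by 0.40 ± 0.12 and 0.31 ± 0.12, and Rasgrf1, a guanine nucleotide exchange factor, was lower by -0.38 ± 0.12 (log2, SE). Rbp3, the retinoid carrier of the space around the photoreceptors and the most abundant of the list, differed by 0.21 ± 0.15 (0.12 without TP-1036). Mfrp, a membrane protein gene whose loss raises Prss56 in the mouse eye, was looked up after its values were seen. It had 3.19, 8.33, 9.98 and 5.80 CPM, with the groups overlapping, and its log2 difference of 0.44 ± 0.46 (SE) was -0.08 without P1041 and 1.31 without P1033.

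Markers of Müller glia, the cell type in which Prss56 is known to be made, were mostly higher in the transgenic-labelled libraries. Serpine3 and Prss56 were chosen for their difference, so its size is not set against that of these markers. Their summed level was 9584 and 10116 CPM in wild type and 14821 and 11689 CPM in the transgenic-labelled libraries, 1.35 times higher on average over the list's 30 genes. Of the 30, 29 were higher and 1 lower, 14 were higher at an unadjusted p of 0.05, and the median log2 difference was 0.38 (0.19 without TP-1036). In 26 of the 30 the groups were apart and higher, against 23.8% of all tested genes. Apoe, the lipid carrier, stood at 1017, 1250, 2620 and 2046 CPM, Clu, a secreted chaperone gene, at 1324, 1558, 2577 and 1568 CPM, and glutamine synthetase (Glul) at 2264, 2196, 2839 and 2387 CPM. Clu was high in TP-1036 alone. Prss56 was also higher in TP-1036 (19.6 CPM) than in TP-1040 (13.8 CPM). Serpine3 was close to equal in these libraries (7.82 and 8.76 CPM), with overlapping Poisson intervals (6.95 to 8.76 and 7.88 to 9.72 CPM).

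Of 36 listed genes of reactive gliosis 28 were tested, 26 were higher, 4 at an unadjusted p of 0.05, and 0 were lower at that threshold, with a median of 0.32 (0.62 without TP-1040, 0.08 without TP-1036). The 4 were Hspb1, a small heat shock protein gene (3.49 and 4.42 against 7.95 and 7.72 CPM), Gfap, the glial filament (116 and 96.1 against 182 and 134 CPM), Ctgf, a matrix signalling protein gene, and complement C4b. The last 2 differed by 0.46 ± 0.17 and 0.68 ± 0.27 (log2, SE). Without P1041 these were 0.29 for Ctgf and 0.36 for C4b, while C4b was at 1.11 without P1033 and 0.44 without TP-1036. Gfap differed by 0.58 ± 0.18 (log2, SE), and by 0.35 without TP-1036. Of the 3 most abundant genes of this list, Cp (321, 367, 510 and 358 CPM) and Fgf2 (213, 261, 265 and 174 CPM) overlapped between the groups. The log2 difference of Fgf2 was -0.11 ± 0.22 (SE). Vim was higher by 0.49 ± 0.21 (log2, SE), and by 0.14 without TP-1036. Of 24 listed factors of the STAT, AP-1 and EGR families and their partners, 19 were tested, 17 were higher and 2 lower, with a median of 0.25 (0.11 without P1041). At an unadjusted p of 0.05 Egr1, Jun (0.45 ± 0.14) and Fos (0.46 ± 0.17, log2, SE) were higher, with Fos at 0.26 without P1041 and 0.71 without P1033. Stat3, the most abundant, stood at 141 and 163 CPM in wild type and at 175 and 139 CPM, so its groups overlapped.

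Genes were then ranked by how like their levels over the 4 libraries were to those of Serpine3 and Prss56. Likeness was the Euclidean distance between log2(CPM + 0.5) profiles with each gene's mean removed. Nearest to Serpine3 was Lyz2, at a distance of 0.192, with 7.11 and 9.97 CPM in wild type and 48.7 and 50.8 CPM in the transgenic-labelled libraries. Like Serpine3, Lyz2 was close to equal in TP-1036 and TP-1040. Next came the antigen presentation genes H2-Aa (0.765), H2-Ab1 (0.826) and Cd74 (0.901) and the phagocyte glycoprotein gene Gpnmb (0.999). The class II genes were higher in TP-1036 than in TP-1040, unlike Serpine3. Prss56 itself was at place 7 from Serpine3, at a distance of 1.10.

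Nearest to Prss56 was Ttr, at a distance of 0.0782, with 11.2 and 14.9 CPM in wild type and 41.6 and 28.4 CPM in TP-1036 and TP-1040. Ttr is a marker of the retinal pigment epithelium and ciliary body, tissues next to the neural retina. After it came Mpeg1 (0.239), a pore-forming protein gene of macrophages, Clec7a (0.277), the receptor dectin-1, C3ar1 (0.304), the receptor of complement fragment C3a, and Laptm5 (0.306), a lysosomal membrane protein gene of blood cells. From Prss56, Serpine3 was only at place 887. A profile over 4 libraries consists largely of the group difference itself, so the distances are a description.

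**Figure D4:**
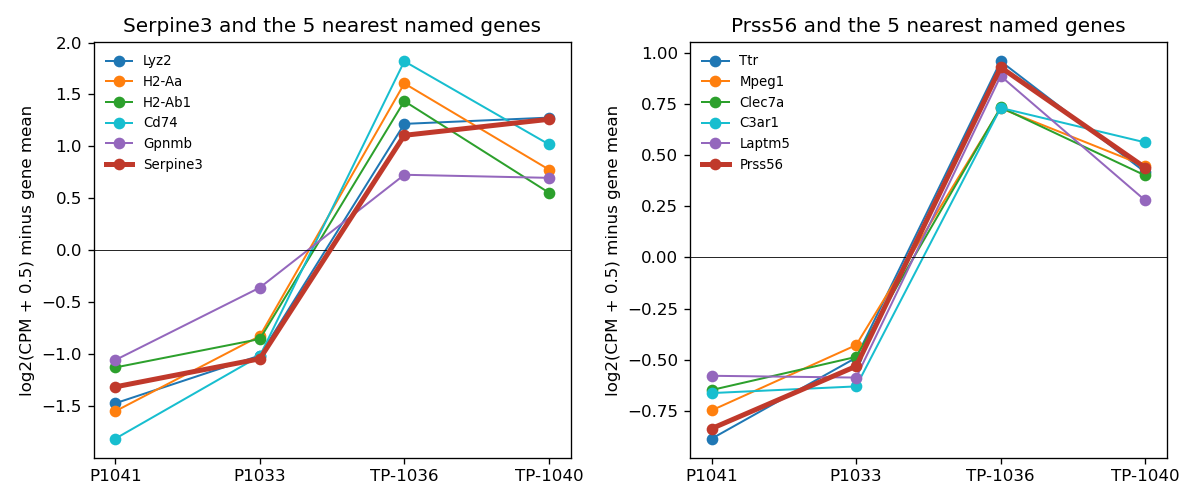
Log2(CPM + 0.5) minus each gene's mean for Serpine3 (left) and Prss56 (right, both thick red) with the 5 named genes nearest to each over 4 libraries; lines join libraries for reading only. Lyz2 tracks Serpine3 at a distance of 0.192 and Ttr tracks Prss56 at 0.0782, with TP-1036 above TP-1040 for Prss56 and not for Serpine3.

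Markers of other cells moved between the same libraries. The summed level of 24 microglia and macrophage markers was 288 and 334 CPM in wild type and 769 and 552 CPM in TP-1036 and TP-1040. All 21 tested were higher, 17 of them at an unadjusted p of 0.05 (such as Csf1r at 0.71 ± 0.25 and Mpeg1 at 1.19 ± 0.16, log2, SE), and none of the 24 was at 0 in any library. After adjustment over all genes edgeR called 0 of the 21 and DESeq2 called 14. Without TP-1036 the difference of Csf1r was 0.30. Pigment epithelium and ciliary body genes, 17 of 20 in the table, summed to 457, 487, 710 and 530 CPM, and 9 of 13 tested were higher. Rlbp1, which is also on the Müller glia list, held most of that sum (339, 312, 493 and 359 CPM). The median log2 difference of the list was 0.39, and 0.06 without TP-1036. Lens genes, 3 of 15 in the table, summed to 3.31 and 0.818 CPM in wild type, 233 in TP-1036 and 5.71 in TP-1040, with Crybb2 at 0 reads in P1033. Astrocyte markers summed to 414, 401, 527 and 459 CPM over 7 genes, and 6 of 6 tested were higher. Slc6a11 (212, 221, 238 and 238 CPM) and Gfap, also on the gliosis list, held the largest parts of that sum. Rod markers, 16 genes, had by far the highest of these sums. They reached 80807 and 73346 CPM in wild type against 90281 and 83370 CPM in TP-1036 and TP-1040. Of the 16, 15 were higher, with a median log2 difference of 0.19. A mostly higher list was thus not particular to Müller glia markers. Ganglion cell markers were lower, with 1164 and 823 CPM in wild type and 752 and 670 CPM in the transgenic-labelled libraries over 16 genes. Their median log2 difference was -0.53, and -0.21 without P1041. The part of Müller glia, myeloid cells, pigment epithelium or ganglion cells in the levels of Serpine3 and Prss56 was not tested.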

How the data were processed

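RNA was sequenced from mouse retinas, 2 libraries per group. The authors deposited a table of estimated counts per gene and FPKM. The 4 columns of estimated counts deposited by the authors were used, and the 4 of FPKM were not. Bowtie 0.12.2 and the builds mm8 and mm9 appear in the submitters' processing notes. No source used here names the counter, the strand setting or the filters.

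FPKM was worked out from counts, totals and the longest GENCODE M21 transcript of each name, with the median of 3472 bases for 167 unmatched entries. The 12687 genes that reached a mean FPKM of 1 were tested with edgeR 4.0.16 in R 4.3.3 on rounded counts: TMM scaling, quasi-likelihood fit, two-sided, Benjamini-Hochberg over all tested genes. CPM uses TMM-scaled totals. DESeq2 1.42.0 and limma 3.58.1 were alternatives. The code was tested on simulated data. Named genes were the members, the 5 nearest in profile to each, 2 neighbours on each side, and from each list the genes at an unadjusted p of 0.05 (up to 6) and the 3 most abundant. Mfrp was added after values were seen. A few genes this rule selects are either not reported here or enter list counts only. Members and lists were chosen with earlier results of these data known. The columns carry no replicate numbers.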

Additional observations from a re-analysis of the deposited data

How the results depend on the processing

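The difference of Serpine3 stayed within 1 SD of the replicates' spread, except with limma on log2(FPKM + 1), where it was 1.87, since that pseudocount shrinks low genes. Prss56 stayed within it under every alternative run, from 1.15 to 1.68. With a mean FPKM of at least 5, Serpine3 was not tested. The number of genes called, 0 in edgeR, was 1 with upper-quartile scaling and 1 without a filter, 69 with DESeq2 and 2 with limma at either pseudocount (1 or 0.1), and with a library left out it was 3923 for TP-1040, 91 for P1033, 29 for P1041 and 27 for TP-1036. Of 101 tested genes of the related lists, 19 were at an unadjusted p of 0.05 (18 higher, 1 lower), from 8 without P1041 to 63 without TP-1040. A fit that leaves out a library has a lone sample in 1 group, assumed to vary like the other. The share of all tested genes at an unadjusted p of 0.05 (8.88%, edgeR) was worked out for the main fit only. List counts from fits with a library left out thus have no matching background, and nothing about the lists is read from them. Signs of log2 differences turned with a library left out or another setting for Plscr1 (0.13, and -0.02 without TP-1036), Stat3 (0.05, and -0.12 to 0.21 with a library left out), Vldlr (-0.09, and -0.24 to 0.05), the median of the ocular size list (0.05, and -0.03 to 0.12), Htra1 (-0.09 without TP-1036, in a range up to 0.74), Rnaseh2b (-0.06 to 0.13 with a library left out, -0.0038 without P1033), Mfrp (-0.08 to 1.31) and Eif4e2 (0.0071 with upper-quartile scaling, 0.00045 without a filter, and -0.12 to 0.10 with a library left out). The sign also turned for Fgf2 (-0.11, and -0.44 to 0.17 with a library left out). The cause was not tested. No paired analysis was possible because the columns carry no replicate numbers. Depth limits the wild-type value of Serpine3, with 30 reads in its lowest library.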
